A study of Mus musculus with 18 samples.

Results

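The ATF4-CHOP axis is the transcriptional end of the integrated stress response, and its mRNAs were followed here in mouse fibroblasts in which the proteasome was blocked. The 10 genes, chosen by symbol, were Atf4, Ddit3 (which encodes CHOP), Atf3, Atf5, Cebpb, Cebpg, Trib3, Chac1, Ppp1r15a and Ppp1r15b. Each had 1 entry in the table of 23420 gene symbols, and all 10 passed the expression filter, which left 11762 genes to be tested. The study asked how cells with and without the transcription factor Nrf1 respond to carfilzomib (CFZ), an irreversible proteasome inhibitor used against myeloma. RNA was sequenced from 18 samples of NIH-3T3, an established line of immortalized mouse embryonic fibroblasts grown in DMEM with 10% fetal bovine serum, with 3 libraries in each of 6 groups. WT cells and Nrf1-KO cells, the latter made earlier with CRISPR/Cas9, were given DMSO or CFZ at 200 nM, the latter during 6 h in some samples and 24 h in others. No time was given for DMSO, and the number of clones behind the Nrf1-KO line is not given in the sources used here, so that the line and the genotype cannot be told apart.

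When translation initiation is slowed by phosphorylation of the initiation factor eIF2, bulk protein synthesis falls while the mRNA of ATF4, held back by small reading frames in its leader, is translated better. ATF4 pairs with C/EBP proteins on composite DNA elements and switches on genes for amino acid supply, redox control and stress signalling, among them CHOP, ATF3, the pseudokinase TRIB3 and the glutathione-degrading enzyme CHAC1. The loop closes through phosphatase subunits, the inducible GADD34 (Ppp1r15a) and the constitutive CReP (Ppp1r15b), which direct protein phosphatase 1 to eIF2. ATF4 protein is also degraded by the proteasome, so an mRNA level is not a measure of its activity.

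Total counts per library ran from 8333148 to 23917081, with a median of 14419832. Levels are in CPM, counts relative to the library's total after TMM scaling by edgeR, and changes are log2 fold changes with their standard errors and Benjamini-Hochberg adjusted p-values from edgeR's quasi-likelihood test. A gene is called changed at an adjusted p-value under 0.05, and CFZ changed so many genes that counts of calls are given beside the share of all tested genes called in that direction. Groups whose libraries did not overlap were also common. Between CFZ and DMSO this was so for 70.6% to 84.6% of all tested genes. Between 6 h and 24 h it was 75.3% in WT and 76.7% in Nrf1-KO cells, and between the lines 59.8% to 72.6%. Nfe2l1, the gene that encodes the factor named Nrf1 in this study, averaged 448 CPM in WT DMSO and 180.1 in Nrf1-KO DMSO (log2 fold change -1.31 ± 0.0338, adjusted p = 1.6e-24 by edgeR). With CFZ it averaged 642 and then 565 CPM in WT cells, and 419 and then 204 in Nrf1-KO cells, so that it was lower in Nrf1-KO cells in every treatment (-0.62 ± 0.0329 after 6 h and -1.47 ± 0.0339 after 24 h, adjusted p = 1.1e-16 and 2e-26) but at 6 h came near the WT DMSO level. The position of the edit in the gene is not given in the sources used here, and reads outside it would not be lost. Within each group every pair of libraries correlated at 0.994 or higher. Of the marker lists, 8 fibroblast genes summed to between 27260 and 35210 CPM in DMSO, and to between 8868 and 13330 CPM at 24 h of CFZ. The T cell gene Cd3e and the epithelial gene Epcam were at 0 in all 18 libraries, the leukocyte gene Ptprc was at 0 in all WT libraries but not in the Nrf1-KO ones, and the 3 leukocyte, 3 epithelial and 3 endothelial markers summed to at most 5.77, 13.0 and 3.83 CPM in any library. Other markers of these lists were present and changed at 24 h of CFZ. The epithelial Cdh1 changed by -3.54 in WT and -4.87 in Nrf1-KO cells, from 6.12 and 11.6 CPM in DMSO. The endothelial Cdh5 changed by 3.67 and 4.22, and the leukocyte Cd68 by 2.26 and 2.55. The part of all these markers in the results was not tested. In bulk RNA a change in the number of cells of a kind and a change in RNA per cell cannot be told apart.

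Short regulatory elements were looked for on both strands of the promoter windows of RefSeq (GRCm38.p6), which run from 250 bases before a gene's start to 50 after it. Of the 10 genes, 9 had a window, and Atf5 had 2. The C/EBP-ATF response element, at which ATF4 and CHOP bind as dimers with C/EBP proteins, was searched as TGATGNAA or TTNCATCA. It was present in 3.97% of all 32851 windows and in those of Atf3, Chac1 and Trib3. The cAMP response element TGACGTCA, a site for ATF and CREB factors, was present in 1.79% of windows and in that of Ppp1r15a. A match is a description of the letters and not a measured site. The window of Ddit3 held neither element. The bases before the start are shown for the 3 genes with a match there, which like Ddit3 are among those with the largest changes. The match is in capitals. For Atf3 (chr1:191183334-191183583, minus strand) it lay at positions -110 to -103 from the RefSeq start, in a stretch that GENCODE places within the longer Atf3 gene.
Atf3: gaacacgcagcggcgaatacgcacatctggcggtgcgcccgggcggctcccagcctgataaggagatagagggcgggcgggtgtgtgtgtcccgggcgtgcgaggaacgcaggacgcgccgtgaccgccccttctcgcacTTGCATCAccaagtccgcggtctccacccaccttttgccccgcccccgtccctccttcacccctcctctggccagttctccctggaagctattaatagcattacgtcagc
For Chac1 (chr2:119350992-119351241, plus strand) the same 8 letters stood at positions -193 to -186.
Chac1: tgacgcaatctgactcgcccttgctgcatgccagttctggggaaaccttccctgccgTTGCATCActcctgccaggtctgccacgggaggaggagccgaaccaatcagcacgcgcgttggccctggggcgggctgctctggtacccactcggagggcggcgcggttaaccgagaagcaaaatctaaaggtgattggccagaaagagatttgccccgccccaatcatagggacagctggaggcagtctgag
For Ppp1r15a (chr7:45526269-45526518, minus strand) the cAMP response element lay at positions -12 to -5.
Ppp1r15a: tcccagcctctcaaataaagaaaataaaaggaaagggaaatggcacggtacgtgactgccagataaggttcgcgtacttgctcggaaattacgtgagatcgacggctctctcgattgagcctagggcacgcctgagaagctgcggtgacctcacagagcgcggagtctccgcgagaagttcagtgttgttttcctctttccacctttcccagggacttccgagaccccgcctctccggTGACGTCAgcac
In Trib3 the match (chr2:152344039-152344046, minus strand) fell 15 to 22 bases after the RefSeq start and ahead of the start GENCODE gives, and it is shown with 10 bases on either side.
Trib3: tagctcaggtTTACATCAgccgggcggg
The endoplasmic reticulum stress element, CCAAT and CCACG with 9 bases between them, was in 0.119% of windows and in no window of these genes. The antioxidant response element TGACNNNGC, a site for Nrf1 and its relative NRF2, was in 12.4% of windows and in those of Cebpb and Ppp1r15a, where it did not overlap the cAMP response element.

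CFZ raised some of the 10 genes and lowered others, at 24 h in numbers near the shares of all tested genes. At 6 h it raised 7 of them in WT cells, against 35.6% of all tested genes, and 8 in Nrf1-KO cells, against 34.5%. It lowered 2 in WT cells, Atf5 and Cebpg, and only Atf5 in Nrf1-KO cells, where 36.2% and 35% of tested genes fell. At 24 h, 5 genes were higher and 5 lower than DMSO in WT cells, where 43.2% and 40.5% of all genes were called, and 6 were higher and 4 lower in Nrf1-KO cells, where 44.4% and 41.1% were. The rises past 2-fold were those of Atf3, Ddit3, Chac1 and Ppp1r15a at 6 h in WT cells, joined by Trib3 in Nrf1-KO cells. Such rises were made by 3.98% and 3.3% of tested genes, and falls of that size, made by none of the 10, by 5.65% and 4.26%. At 24 h Atf3, Ddit3 and Ppp1r15a stayed past 2-fold in WT cells, with Chac1 added in Nrf1-KO cells, where 10.5% and 11.5% of genes were. The falls past 2-fold at 24 h were those of Atf5 in WT cells, and of Atf5 and Cebpb in Nrf1-KO cells, where 14.5% and 15.2% of genes fell so far. The median log2 fold change of the 10 genes was 0.56 in WT cells and 1.33 in Nrf1-KO cells at 6 h, and -0.08 and 0.39 at 24 h, with the median of all tested genes between -0.02 and 0.03. These comparisons share their DMSO libraries within each line.

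**Figure D1:**
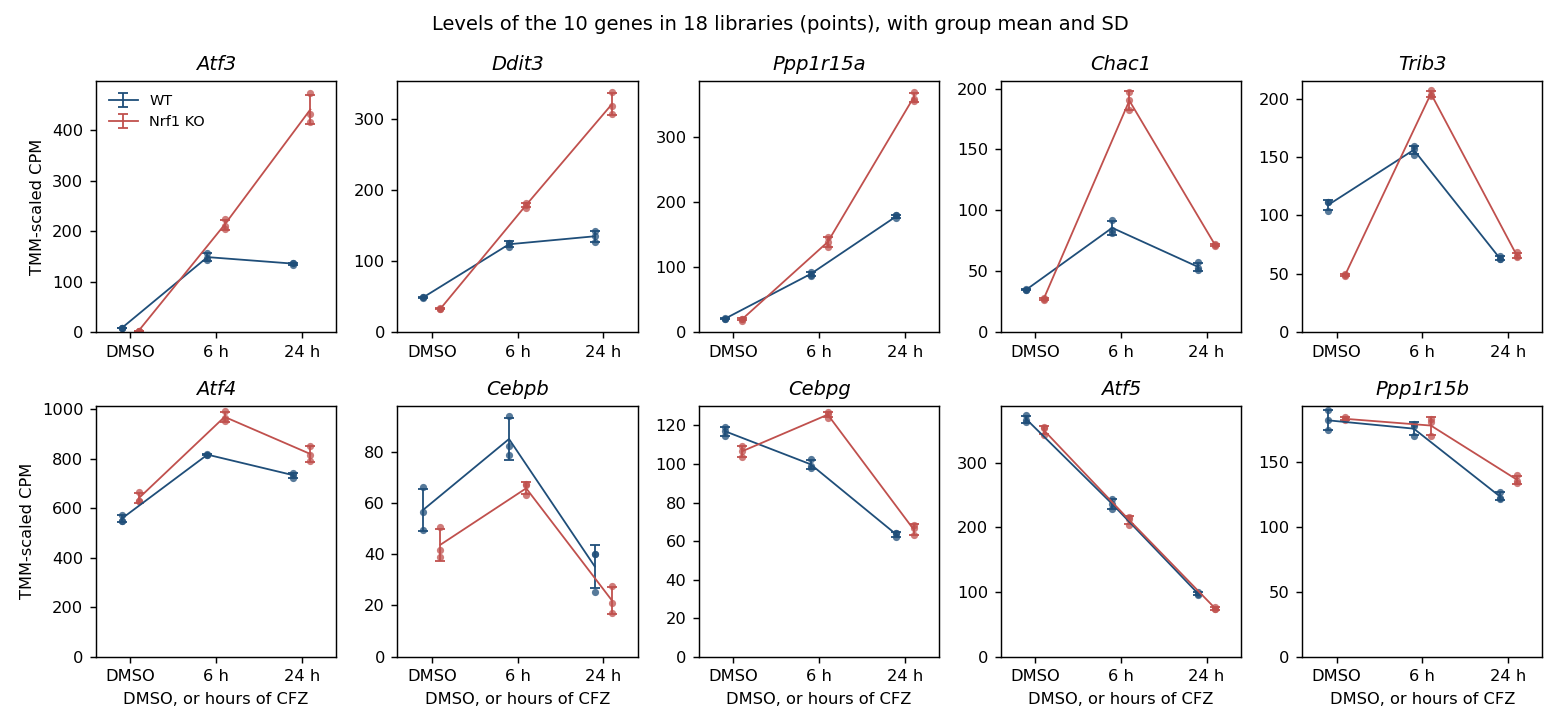
Levels of the 10 genes in TMM-scaled CPM (vertical axes, each from 0) in DMSO and at 6 h and 24 h of CFZ for WT and Nrf1-KO cells, with 1 point per library and the mean and SD of 3 libraries per group. Atf3, Ddit3 and Ppp1r15a were highest in Nrf1-KO cells at 24 h, Trib3 and Chac1 peaked at 6 h in both lines, and Atf5 fell at each time.

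Atf4 itself rose by less than 2-fold. Ranked by fold change from the highest at 6 h, it stood at place 1487 of 11762 genes in WT cells and 1198 in Nrf1-KO cells. In WT cells its 3 libraries held 549, 574 and 549.8 CPM in DMSO, 816, 819.6 and 813 at 6 h, and 722, 736 and 742 at 24 h. In Nrf1-KO cells they held 629, 628 and 664 CPM in DMSO, 952, 963 and 992 at 6 h, and 789.6, 815 and 852 at 24 h. In each line all treated libraries lay above all DMSO libraries, and the 6 h libraries above those of 24 h. The log2 fold change at 6 h was 0.55 ± 0.0339 in WT cells (edgeR, adjusted p = 2.1e-15) and 0.60 ± 0.0338 in Nrf1-KO cells (adjusted p = 3.5e-16), which are rises of 1.46- and 1.51-fold. At 24 h the rises were 0.40 ± 0.034 and 0.35 ± 0.0337. The response of Atf4 did not differ detectably between the lines, since the 6 h interaction was 0.05 ± 0.0478 and the 24 h interaction -0.04 ± 0.0478 (edgeR, adjusted p = 0.48 for both). Over the alternative analyses the 24 h interaction passed the threshold only when libraries were scaled by total count alone (-0.12, adjusted p = 0.0313, of a range up to 0.83). Per kilobase of exon, Atf4 had the highest level of the 10 genes in every group, from 236.5 CPM per kb in WT DMSO to 411 in Nrf1-KO cells at 6 h.

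Ddit3 encodes CHOP, a C/EBP family factor induced by ATF4 and tied to cell death under prolonged stress. Its gene lies at chr10:127290774-127296288 on the plus strand (GRCm38, GENCODE), and 4.73% of its exonic bases overlap exons on the other strand. The WT libraries held 49.6, 48.1 and 49.1 CPM in DMSO, 126, 119 and 126 at 6 h, and 127, 135 and 142 at 24 h. The Nrf1-KO libraries held 32.0, 32.9 and 33.8 CPM in DMSO, 182, 175 and 179.5 at 6 h, and 306, 318 and 338 at 24 h. Ddit3 therefore started lower in Nrf1-KO cells and ended higher, with no overlap between the lines in any treatment. In WT cells the change was 1.34 ± 0.0458 at 6 h and 1.47 ± 0.0453 at 24 h (edgeR, adjusted p = 4.8e-22 and 7.7e-24). In Nrf1-KO cells it was 2.44 ± 0.0471 and then 3.28 ± 0.0447 (adjusted p = 9.9e-29 and 2.6e-33), a 9.72-fold rise at 24 h.

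Atf3, a stress-induced factor that can repress as well as activate, had the widest range, with its highest group mean 144 times its lowest. The gene lies at chr1:191170296-191218039 on the minus strand. In DMSO the WT libraries held 7.51, 8.44 and 7.96 CPM and the Nrf1-KO libraries 3.09, 3.06 and 3.09. At 6 h they rose to 157, 143 and 146 CPM in WT cells and to 205, 210 and 224 in Nrf1-KO cells. The lines then parted, since at 24 h the WT libraries stood at 136.5, 133 and 137.5 CPM and the Nrf1-KO libraries at 417, 433 and 474. The change from DMSO in WT cells was 4.22 ± 0.0669 at 6 h and 4.09 ± 0.0674 at 24 h (edgeR, adjusted p = 6.7e-31 and 6.4e-31). In Nrf1-KO cells it was 6.11 ± 0.0755 and 7.16 ± 0.0704 (adjusted p = 8.4e-34 and 6.3e-37). Ranked by fold change from the highest, Atf3 stood at place 1 of 11762 genes in Nrf1-KO cells at 6 h, 13 in the same cells at 24 h, 11 in WT cells at 6 h and 65 in WT cells at 24 h. The fold changes in Nrf1-KO cells are taken from a low DMSO level, with 47, 48 and 80 counts per library.

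Atf5 went the other way. ATF5 is a relative of ATF4 whose translation is controlled in the same manner, and its gene lies at chr7:44812256-44816658. In WT cells the libraries held 373, 362 and 366 CPM in DMSO, 244, 229 and 236 at 6 h, and 97.2, 96.1 and 100.2 at 24 h. In Nrf1-KO cells the values were 356, 353 and 343 CPM, then 216, 213 and 204, then 77.2, 74.1 and 73.4. No treated library of either line reached its DMSO level, and levels at 24 h lay below those at 6 h. The change was -0.64 ± 0.0328 at 6 h and -1.91 ± 0.0356 at 24 h in WT cells (edgeR, adjusted p = 2.2e-17 and 1.3e-29), and -0.73 ± 0.0335 and -2.23 ± 0.0361 in Nrf1-KO cells (adjusted p = 1.5e-18 and 2.3e-31). By 24 h Atf5 was 3.75-fold lower in WT cells and 4.68-fold lower in Nrf1-KO cells, and per kilobase it went from the second most abundant of the 10 mRNAs in DMSO to place 5 in WT and place 6 in Nrf1-KO cells.

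The C/EBP factors, which are dimer partners of ATF4 and CHOP, rose briefly or not at all. Cebpb, a regulator of inflammatory and metabolic genes, held 49.6, 56.3 and 66.0 CPM in WT DMSO, 94.0, 82.2 and 78.5 at 6 h, and 40.1, 40.1 and 25.4 at 24 h. Its Nrf1-KO libraries held 38.7, 50.7 and 41.6 CPM, then 67.4, 62.9 and 66.8, then 27.8, 17.1 and 21.0. It was the most variable of the 10 genes, with a coefficient of variation of 24.1% in WT cells and 24.6% in Nrf1-KO cells at 24 h. Even so, it was above DMSO at 6 h and below DMSO at 24 h in both lines without overlap, with changes of 0.58 ± 0.108 and -0.71 ± 0.124 in WT cells (edgeR, adjusted p = 2.1e-05 and 4.5e-06) and 0.59 ± 0.119 and -1.01 ± 0.136 in Nrf1-KO cells (adjusted p = 5.4e-05 and 4.9e-08). Exons of Tmem189 on the other strand cover 20.7% of the exonic bases of Cebpb.

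Cebpg, whose product has no activation domain of its own and works through its partners, was the 1 gene of the 10 whose 6 h change had opposite signs in the lines. The WT libraries held 115, 117 and 119 CPM in DMSO and 97.9, 99.2 and 102 at 6 h, a fall of -0.23 ± 0.0364 (edgeR, adjusted p = 1.7e-06). The Nrf1-KO libraries held 103, 109 and 107 CPM in DMSO and 124, 127 and 126 at 6 h, a rise of 0.24 ± 0.0363 (adjusted p = 9.4e-07). Both changes were small. By 24 h the fall in WT cells had deepened and the level in Nrf1-KO cells had dropped below DMSO. The libraries then held 61.9, 64.0 and 64.3 CPM in WT cells and 63.1, 66.8 and 68.4 in Nrf1-KO cells, which is 1.84-fold and 1.61-fold below DMSO.

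**Figure D2:**
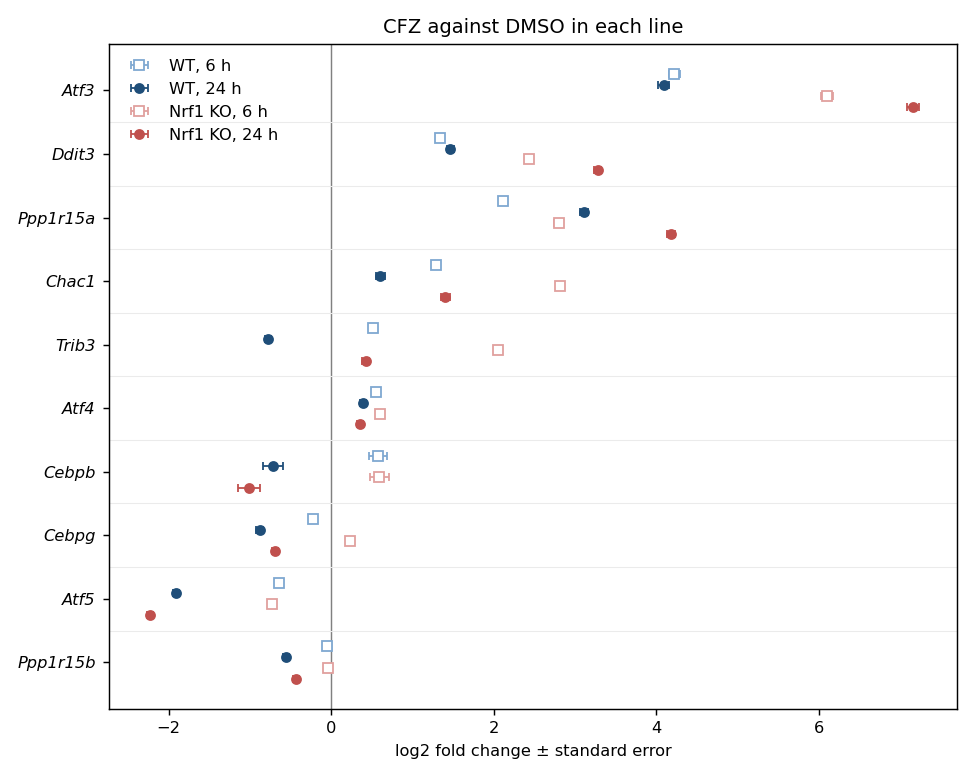
Log2 fold change of each gene for CFZ against DMSO (horizontal axis) with its standard error, for WT and Nrf1-KO cells at 6 h and 24 h. Atf3 lay between 4.09 and 7.16, while Atf4 lay between 0.35 and 0.60 and Atf5 between -2.23 and -0.64.

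Among the feedback genes, Trib3 and Chac1 peaked at 6 h. TRIB3 binds ATF4 and CHOP and holds back their activity, and its gene lies at chr2:152337422-152344032. In WT cells Trib3 stood at 104, 111.5 and 111 CPM in DMSO, 159, 157 and 152 at 6 h, and 62.7, 62.8 and 65.2 at 24 h. In Nrf1-KO cells the libraries held 48.1, 49.4 and 49.6 CPM in DMSO, 203, 203 and 207 at 6 h, and 64.2, 65.1 and 68.6 at 24 h. At 6 h the change was 0.52 ± 0.0355 in WT cells and 2.06 ± 0.0384 in Nrf1-KO cells (edgeR, adjusted p = 2.3e-14 and 4.3e-29). At 24 h it had opposite signs, with -0.77 ± 0.0394 in WT cells and 0.43 ± 0.0418 in Nrf1-KO cells (adjusted p = 4.8e-18 and 5.9e-11). The levels at 24 h nevertheless overlapped between the lines, with a difference of 0.05 ± 0.042 (adjusted p = 0.27). Upper-quartile scaling put that difference at 0.094 (adjusted p = 0.0481, of a range up to 0.669 over the alternatives). The opposite signs at 24 h thus came with DMSO levels that differed 2.22-fold.

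Chac1, which encodes a gamma-glutamylcyclotransferase that degrades glutathione and is a target of ATF4, ATF3 and CHOP, lies at chr2:119351229-119354381. Its libraries held 34.6, 34.9 and 35.3 CPM in WT DMSO, 91.9, 83.6 and 81.5 at 6 h, and 57.2, 50.8 and 52.8 at 24 h. In Nrf1-KO cells they held 28.0, 26.3 and 26.8 CPM in DMSO, 197.5, 190.4 and 182.5 at 6 h, and 70.6, 72.5 and 71.5 at 24 h. All 3 groups of a line were apart from each other, with 6 h the highest. The change in WT cells was 1.29 ± 0.05 at 6 h and 0.61 ± 0.0534 at 24 h (edgeR, adjusted p = 1.2e-20 and 4.8e-12). In Nrf1-KO cells it was 2.82 ± 0.0479 and 1.41 ± 0.0516 (adjusted p = 3.4e-30 and 7.1e-22), so that the 6 h rise was 7.06-fold.

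The phosphatase subunits did not move together. Ppp1r15a (GADD34), at chr7:45522916-45526268, held 21.6, 19.9 and 20.3 CPM in WT DMSO, 93.3, 87.2 and 88.3 at 6 h, and 179.8, 180.4 and 176 at 24 h. In Nrf1-KO cells it held 17.9, 20.2 and 21.0 CPM, then 132, 139 and 146, then 356, 359 and 369. Its DMSO libraries overlapped between the lines, and its treated libraries did not. The change was 2.12 ± 0.0537 at 6 h and 3.11 ± 0.0498 at 24 h in WT cells, and 2.80 ± 0.0514 and 4.18 ± 0.0472 in Nrf1-KO cells (edgeR, adjusted p between 1.6e-35 and 1.3e-25). Ppp1r15b (CReP), at chr1:133131143-133139783, held 174, 189.5 and 182 CPM in WT DMSO, 169.5, 177 and 179 at 6 h, and 127, 122 and 122 at 24 h. In Nrf1-KO cells the libraries held 183, 184 and 182 CPM, then 180.2, 183 and 169.8, then 139.6, 134 and 135. At 6 h it overlapped DMSO in both lines (-0.05 ± 0.0363 and -0.04 ± 0.0366, adjusted p = 0.21 and 0.37 by edgeR). Under upper-quartile or total-count scaling both values passed the threshold as falls of between -0.18 and -0.11, and over all alternatives the adjusted p ran from 6.57e-05 to 0.716 in WT cells and from 0.000804 to 0.837 in Nrf1-KO cells. At 24 h Ppp1r15b was lower by -0.56 ± 0.0374 in WT cells and -0.43 ± 0.0364 in Nrf1-KO cells (adjusted p = 5.7e-15 and 2.2e-12).

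Of the reads counted on the 2 Ppp1r15 genes together, Ppp1r15a took 10.2% ± 0.78 (SD, n = 3) in WT DMSO, 33.8% ± 1.45 at 6 h and 59.1% ± 0.526 at 24 h. In Nrf1-KO cells it took 9.72% ± 0.735, 43.9% ± 2.11 and 72.6% ± 0.72. The share was alike in DMSO and apart between the lines at both times of CFZ. It compares reads and not molecules, because the exons of Ppp1r15b are longer, with 5594 bases against 2937. Exons of Gm26616 on the other strand cover 11.4% of the exonic bases of Ppp1r15b.

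**Figure D3:**
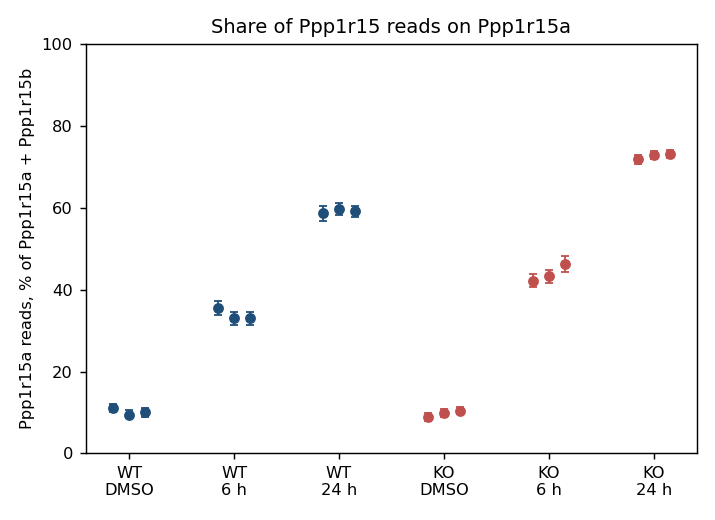
Reads on Ppp1r15a as a percentage of those on Ppp1r15a and Ppp1r15b (vertical axis), with 1 point per library and its exact 95% binomial interval, which covers counting error only, in the 6 groups. The share lay between 8.92% and 11.04% in DMSO and between 71.8% and 73.2% in Nrf1-KO cells at 24 h.

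From 6 h to 24 h of CFZ, 8 of the 10 genes fell in WT cells and 2 rose, with 35.4% of all tested genes falling and 36.9% rising. In Nrf1-KO cells 7 fell and 3 rose, beside 38.3% and 38.7%. Ppp1r15a rose in both lines, by 0.995 ± 0.0415 in WT cells and 1.38 ± 0.0385 in Nrf1-KO cells (edgeR, adjusted p = 8.2e-20 and 1.1e-24). Ddit3 rose by 0.84 ± 0.0382 in Nrf1-KO cells (adjusted p = 4.5e-19), but its rise of 0.13 ± 0.0417 in WT cells (adjusted p = 0.0059) lost the threshold without replicate 1, 2 or 3 of WT at 6 h (adjusted p = 0.0585, 0.206 and 0.05) or without replicate 3 of WT at 24 h (adjusted p = 0.0826), within a range from 0.000951 to 0.206 over the alternatives. Atf3 differed in sign, with -0.13 ± 0.0449 in WT cells and 1.06 ± 0.041 in Nrf1-KO cells (adjusted p = 0.0095 and 7.5e-21). The largest falls were those of Trib3 (-1.30 ± 0.0389 in WT and -1.63 ± 0.0376 in Nrf1-KO cells), Cebpb (-1.29 ± 0.121 and -1.60 ± 0.136) and Atf5 (-1.27 ± 0.0365 and -1.50 ± 0.0377). These 3 genes fell past 2-fold in WT cells, as 6.92% of tested genes did, and were joined in Nrf1-KO cells, where 9.22% did, by Chac1 (-1.41 ± 0.0425). Rises past 2-fold, made by 5.16% of tested genes in WT cells and 6.56% in Nrf1-KO cells, were those of Ppp1r15a and Atf3 in the latter.

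In DMSO, where the lines differ without any inhibitor, 6 of the 10 genes were lower in Nrf1-KO cells, against 29.1% of tested genes, and 1 was higher, against 25.7%. Atf3 was 2.58-fold lower (-1.37 ± 0.132, adjusted p = 2.5e-10 by edgeR) and Trib3 2.22-fold lower (-1.15 ± 0.0392, adjusted p = 2.6e-21), where 1.77% of tested genes were lower by 2-fold or more and 3.2% higher. Ddit3 (-0.57 ± 0.0524), Cebpb (-0.39 ± 0.114), Chac1 (-0.37 ± 0.057) and Cebpg (-0.13 ± 0.0349) were lower by less. For Cebpb the libraries of the lines overlapped, and its call (adjusted p = 0.0047 by edgeR) was lost with DESeq2 (adjusted p = 0.103) and without replicate 3 of WT DMSO (adjusted p = 0.0531), the lowest of the alternatives being 1.1e-12. The gene that was higher was Atf4 (0.20 ± 0.0338, adjusted p = 8.3e-06). Values for Atf5 (-0.07 ± 0.0317), Ppp1r15a (-0.05 ± 0.0653) and Ppp1r15b (0.01 ± 0.0354) did not pass the threshold.

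Under CFZ the order of the lines was the reverse for Atf3, Ddit3, Chac1 and, at 6 h, Trib3 and Cebpg. At 6 h 7 genes were higher in Nrf1-KO cells and 2 lower, against 30.5% and 30.8% of tested genes, and at 24 h 6 were higher and 2 lower, against 35.6% and 36.4%. Chac1 had the largest difference at 6 h (1.15 ± 0.0425, adjusted p = 7.1e-21 by edgeR) and alone of the 10 was past 2-fold, where 4.31% of tested genes were higher and 3% lower by so much. At 24 h the largest was that of Atf3 (1.70 ± 0.0421, adjusted p = 1.1e-25 by edgeR), and Ddit3 (1.25 ± 0.0386) and Ppp1r15a (1.02 ± 0.0368) were also more than 2-fold higher in Nrf1-KO cells, where 6.71% of tested genes were higher and 5.53% lower by so much. Atf5 and Cebpb were lower in Nrf1-KO cells at both times, with -0.16 ± 0.0345 and -0.37 ± 0.113 at 6 h and -0.39 ± 0.0396 and -0.68 ± 0.148 at 24 h. The value for Cebpb at 6 h (adjusted p = 0.0052 by edgeR) was not called by DESeq2 (adjusted p = 0.113, the lowest of the alternatives being 1.88e-13). Cebpg did not differ detectably at 24 h (0.06 ± 0.0414, adjusted p = 0.2), but was called under upper-quartile scaling and without replicate 1 of Nrf1-KO at 24 h (0.10 and 0.11, adjusted p = 0.0342 and 0.0331, of a range up to 0.564).

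The test of the difference in response takes the log2 fold change of CFZ against DMSO in Nrf1-KO cells minus that in WT cells. It called the response as more positive in Nrf1-KO cells for 6 genes at 6 h, against 19.8% of tested genes. At 24 h it called 7 genes as more positive and 1 as more negative, against 29.7% and 30%. More positive at 24 h meant a smaller fall for Cebpg and Ppp1r15b, and for Trib3 a rise where WT cells fell. Past 2-fold there were 4 more positive responses at either time (Atf3, Ddit3 and Trib3, with Chac1 at 6 h and Ppp1r15a at 24 h). Of tested genes, 1.21% and 4.07% were more positive and 1.57% and 4.53% more negative by so much. Atf3 differed by 1.88 ± 0.138 at 6 h and 3.07 ± 0.137 at 24 h (edgeR, adjusted p = 1.3e-12 and 1.9e-18). Ddit3 followed with 1.10 ± 0.0668 and 1.81 ± 0.065 (adjusted p = 1.2e-14 and 9.8e-21), and Ppp1r15a with 0.68 ± 0.0784 and 1.07 ± 0.0751 (adjusted p = 2.1e-08 and 1.2e-13). For these 3 genes the difference was larger at 24 h than at 6 h. Each value is the line difference under CFZ minus that in DMSO. For Atf3 the line difference was -1.37 in DMSO and 1.70 at 24 h. At 6 h it lay between 0.48 and 0.58 over the alternatives.

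Trib3 and Chac1 had the reverse order in time, with 1.54 ± 0.0524 and 1.53 ± 0.0711 at 6 h and 1.20 ± 0.0575 and 0.80 ± 0.0749 at 24 h (edgeR, adjusted p between 1.3e-20 and 1e-10). For Trib3 the 24 h value is the line difference at 24 h (0.05) minus that in DMSO (-1.15). Cebpg differed by 0.46 ± 0.0514 at 6 h and 0.19 ± 0.0541 at 24 h (adjusted p = 9.9e-09 and 0.0028), and the latter was lost under total-count scaling (0.12, adjusted p = 0.0779, of a range from 0.000846). The 1 gene whose response was lower was Atf5 at 24 h, with -0.32 ± 0.0507 (adjusted p = 2.5e-06), meaning a larger fall. At 6 h none of the 10 genes was called as lower, where 18.4% of tested genes were. The value for Atf5 was then -0.09 ± 0.0468, with an unadjusted p of 0.0556, DESeq2 also called 0 of the 10, and at an unadjusted p under 0.05 the count was 0 too. Without replicate 1 of WT DMSO or replicate 2 of WT at 6 h it was called (-0.13 and -0.14, adjusted p = 0.0392 and 0.0251, of a range up to 0.343).

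Ppp1r15b had a small difference at 24 h, 0.13 ± 0.0522 (edgeR, adjusted p = 0.028). It lost the threshold under total-count scaling (0.056, adjusted p = 0.387) and without any of 5 single libraries, namely replicate 2 of WT DMSO, replicates 2 and 3 of WT at 24 h, replicate 3 of Nrf1-KO DMSO and replicate 1 of Nrf1-KO at 24 h (adjusted p from 0.052 to 0.104), and the lowest adjusted p of the alternatives was 0.00844. For Cebpb the interaction was 0.02 ± 0.16 at 6 h and -0.30 ± 0.187 at 24 h (adjusted p = 0.95 and 0.18). The 24 h value of Cebpb reached -0.50 without replicate 3 of WT at 24 h and -0.49 without replicate 1 of Nrf1-KO at 24 h (adjusted p = 0.0115 and 0.0172), in each case the library farthest from the others of its group. With no expression filter it was called at -0.29 (adjusted p = 0.00159), and the highest adjusted p of the alternatives was 0.57.

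**Figure D4:**
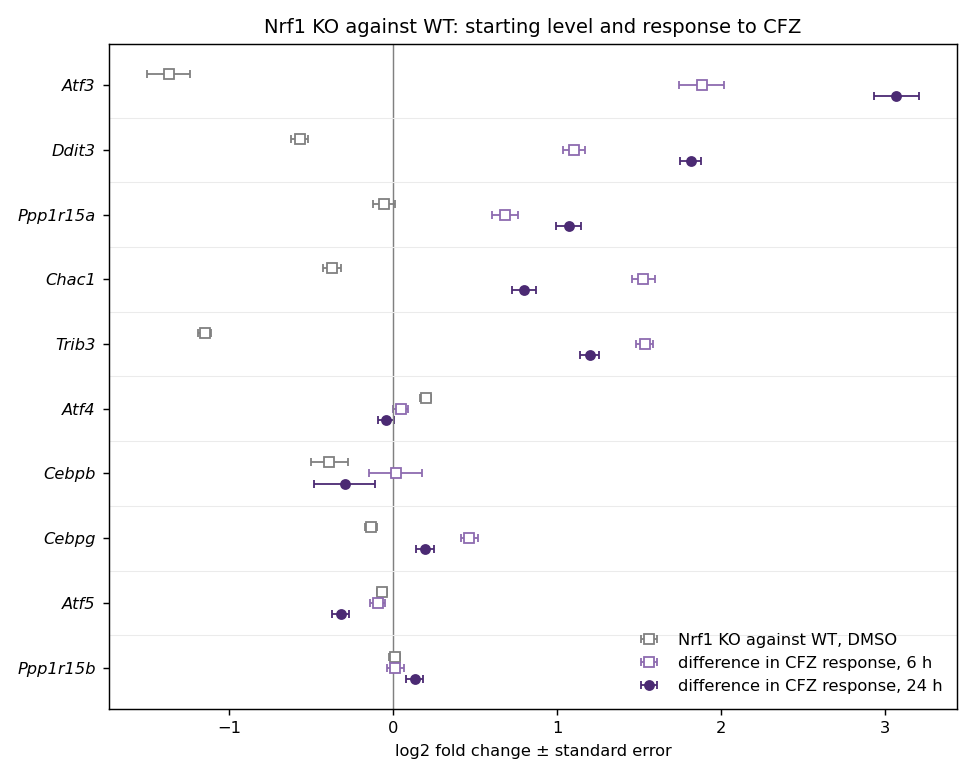
Log2 fold change with its standard error (horizontal axis) for Nrf1-KO against WT in DMSO, and the difference between the lines in the CFZ response at 6 h and at 24 h, for each of the 10 genes. Atf3, Ddit3, Trib3 and Chac1 were lower in Nrf1-KO DMSO, and their responses to CFZ were more positive in Nrf1-KO cells by 0.80 to 3.07.

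Whether the lines moved apart between 6 h and 24 h of CFZ can be asked without the DMSO libraries. Compared this way, the change from 6 h to 24 h was more positive in Nrf1-KO cells for Atf3 (1.19 ± 0.0608), Ddit3 (0.71 ± 0.0566) and Ppp1r15a (0.39 ± 0.0568), with adjusted p from 1.9e-16 to 1.4e-06 by edgeR. It was more negative for Chac1 (-0.73 ± 0.0649), Trib3 (-0.34 ± 0.0546), Cebpg (-0.27 ± 0.056) and Atf5 (-0.23 ± 0.0525), with adjusted p from 9.9e-11 to 0.00072. The counts of 3 and 4 stand beside 20.7% and 22.2% of tested genes, and the 1 gene past 2-fold, Atf3, beside 1.54% higher and 2.64% lower. The other 3 genes were not called, but Ppp1r15b was called under 5 of 19 alternatives (highest value 0.17, adjusted p from 0.0163 to 0.768 over the alternatives), Cebpb under 3 (lowest value -0.52, adjusted p from 0.00297 to 0.65) and Atf4 under total-count scaling (-0.19, adjusted p = 0.00171, of a range up to 0.56). For Ppp1r15b these were no filter, the compared groups only, and leaving out replicate 1 of WT at 6 h or replicate 2 or 3 of Nrf1-KO at 24 h, and for Cebpb no filter and leaving out replicate 3 of WT or replicate 1 of Nrf1-KO at 24 h. This comparison was added after the other values had been seen.

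Further genes of the pathway were described as lists, beside all tested genes. Of 35 symbols of known ATF4 or CHOP targets outside the 10 genes, 34 had an entry (all but Ero1a, listed beside Ero1l) and 33 were tested. In WT cells 26 of them rose and 6 fell at 6 h (median 0.34), where 35.6% and 36.2% of all tested genes did, and 13 rose and 17 fell at 24 h (median -0.20), where 43.2% and 40.5% did. In Nrf1-KO cells, where 34.5% of all tested genes rose at 6 h and 44.4% rose and 41.1% fell at 24 h, 32 rose at 6 h (median 0.75), the exception being Psat1 (-0.05 ± 0.0364, adjusted p = 0.22 by edgeR), and 22 rose and 9 fell at 24 h (median 0.31). In DMSO 26 of the 33 were lower in Nrf1-KO cells and 2 higher, against 29.1% and 25.7% of all tested genes. Nrf1-KO cells had the more positive response for 30 of them after 6 h and for 27 after 24 h, and the more negative for 1 and 3. Of all tested genes, 19.8% and 29.7% were more positive and 18.4% and 30% more negative. At 24 h, when 17 targets fell in WT cells, a more positive response can be a smaller fall and not a larger rise. The median differences of the 33 targets, 0.41 and 0.61, stand beside 0.02 and 0.00 for all tested genes. Each such difference is the line difference under CFZ minus that in DMSO, and the latter had a median of -0.37. Compared directly under CFZ, 20 of the 33 were higher in Nrf1-KO cells and 6 lower at 6 h (median 0.19). At 24 h 22 were higher and 6 lower (median 0.25). All tested genes stood at 30.5% and 30.8% at 6 h, and at 35.6% and 36.4% at 24 h.

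Slc7a11, the cystine transporter, had the highest change at 24 h in both lines, 1.96 ± 0.056 in WT cells and 3.50 ± 0.0585 in Nrf1-KO cells (edgeR, adjusted p = 9.6e-25 and 4.9e-31). The lowest were Pycr1, a proline synthesis enzyme, in WT cells (-2.51 ± 0.0906) and Vldlr, a lipoprotein receptor, in Nrf1-KO cells (-1.17 ± 0.0705). Aars, the alanyl-tRNA synthetase, had the lowest interaction at 24 h (-0.46 ± 0.045). Gdf15, a secreted stress factor, had the highest, but rested on between 0 and 19 counts per library, with 19, 18 and 14 in Nrf1-KO cells at 6 h.

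The arm upstream of ATF4 was counted in the same way. Of 15 genes for the eIF2 kinases and their regulators, eIF2 alpha, its exchange factor eIF2B and the phosphatase (1 of them, Dnajc3, also counted among the targets), 9 rose and 2 fell at 6 h in WT cells and 10 rose and 4 fell at 24 h, beside the 35.6%, 36.2%, 43.2% and 40.5% of all tested genes. In Nrf1-KO cells 7 rose and 2 fell, then 11 rose and 3 fell, beside 34.5%, 35%, 44.4% and 41.1%. The interaction was lower for 8 of the 15 at each time and higher for 1 and then 3, with medians of -0.16 and -0.17, where 18.4% and 30% of all tested genes were lower and 19.8% and 29.7% higher. Eif2b4, a subunit of eIF2B, rose by 1.25 ± 0.0476 in WT cells and 0.31 ± 0.0519 in Nrf1-KO cells at 24 h, and had the lowest interaction (-0.94 ± 0.0707, adjusted p = 6.3e-13 by edgeR). Eif2ak1, the kinase HRI, rose in both lines at 24 h (0.77 ± 0.0384 and 0.76 ± 0.0375, interaction -0.01 ± 0.0538). Ppp1ca, a catalytic subunit of protein phosphatase 1, fell most (-0.63 ± 0.0349 and -0.87 ± 0.0354). The adaptor Nck1 had the highest interaction (0.39 ± 0.0897).

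Of 16 paralogs and dimer partners, 14 were tested. At 24 h 8 rose and 5 fell in WT cells, and 9 rose and 4 fell in Nrf1-KO cells, beside 43.2%, 40.5%, 44.4% and 41.1% of all tested genes. The shares that fell were thus near or below those of all genes, and the shares that rose were above them, in a list of 14 genes. Crem, a cAMP-responsive relative of the ATF factors, rose most, by 2.14 ± 0.0944 and 2.68 ± 0.0893. Trib2, a paralog of Trib3, fell most in both lines, by -2.89 ± 0.0825 in WT cells and -1.30 ± 0.0512 in Nrf1-KO cells, and had the highest interaction (1.59 ± 0.106, adjusted p = 3.5e-14 by edgeR). Nfe2l2, which encodes NRF2, had the lowest (-0.34 ± 0.0497). Cebpa had 0 counts and Batf3 2 counts in all 18 libraries together.

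**Figure D5:**
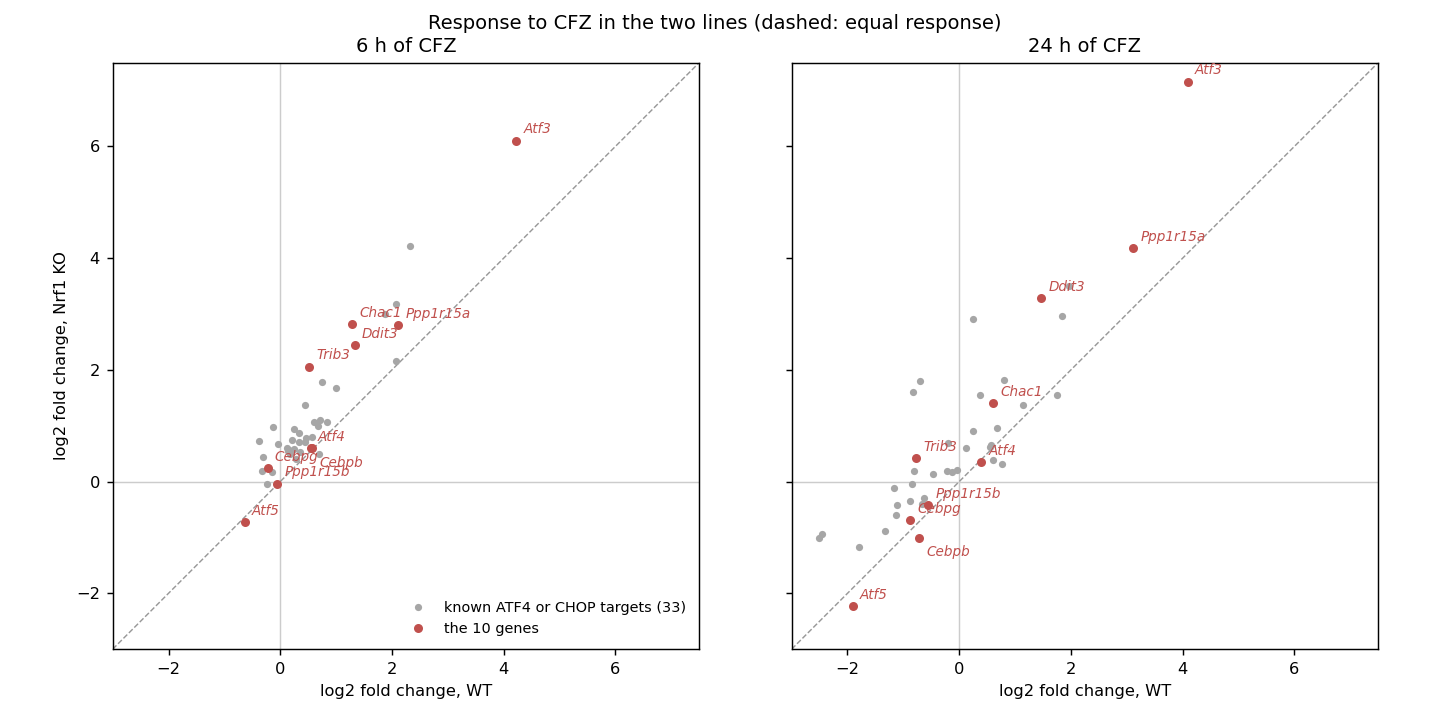
Log2 fold change of CFZ against DMSO in WT cells (horizontal axis) and in Nrf1-KO cells (vertical axis) in 1 panel per time, with points for the 10 genes and the 33 tested targets and a dashed line where both lines respond equally. Atf3, Ddit3, Trib3, Chac1 and Ppp1r15a lay above the line at both times, and Atf4 lay near it.

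The genes whose log2 CPM followed each of the 10 most closely across the 18 libraries are given as a description, since points of a group share their treatment. Atf3 ran closest to Slc7a11 (r = 0.997), Trib3 to Cth, a transsulfuration enzyme (r = 0.978), and Ppp1r15a to Ccdc137 (r = 0.994). Ddit3 ran closest to Snhg1 (r = 0.995) and Snhg5 (r = 0.992), both host genes of small nucleolar RNAs. Chac1 ran closest to Hivep1 (r = 0.988), Atf4 to the dynein light chain gene Dynll1 (r = 0.99), and Atf5 to Ppp2r4 (r = 0.998). Among the others, Cebpg was closest to Ppfibp1 (r = 0.981), Ppp1r15b to Tmem109 (r = 0.982), and Cebpb to the Kruppel-like factor gene Klf2 (r = 0.95).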

How the data were processed

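RNA was sequenced from 18 samples in 6 groups of 3, taken from the sample labels. The authors made stranded mRNA libraries and ran STAR and DESeq2 (versions not given in the sources used here), and deposited a table of raw counts of reads per gene symbol. The build, annotation and use of strand in counting are not given in the sources used here, so reads where genes overlap could be assigned in ways not known here. Coordinates are those of GENCODE M21 (GRCm38).

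Counts were compared with edgeR 4.0.16 in R 4.3.3 (filterByExpr with a minimum count of 10 and a minimum total of 15, TMM, 1 quasi-likelihood model of the 6 groups, Benjamini-Hochberg adjustment over 11762 genes, adjusted p under 0.05), in 12 comparisons. A standard error is the log2 fold change divided by the square root of F. The common biological coefficient of variation was 3.13%. The tests were also run on simulated counts in which far fewer genes changed than under CFZ. That run therefore does not reach the effect of scaling here. The study calls the 3 libraries of a group biological replicates without saying how they were kept apart, and p-values measure the spread between them, which may be technical. Replicates differed by more than counting noise (chi-square per degree of freedom from 1.438 to 8.469).

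Alternatives tried were no filter, DESeq2 1.42.0, upper-quartile scaling, library size alone, a mean count of at least 10, the compared groups only, a replicate block, each library left out, and a minimum fold of 2. The 10 genes and the lists were chosen with earlier results of these data known. Named list genes are those with the highest and lowest change at 24 h in each line and the highest and lowest interaction at 24 h, and of the likeness lists the first of 3, with Psat1, Gdf15's counts, Snhg5, Cebpa and Batf3 named after their values were seen.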

Additional observations from a re-analysis of the deposited data

Results flagged for a closer look

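Results in which the response of Nrf1-KO cells differed from that of WT cells by a test of the difference itself (edgeR's interaction) are listed here as log2 differences, Nrf1-KO minus WT, with no explanation. At 6 h of CFZ against DMSO the difference was 1.88 for Atf3, 1.54 for Trib3, 1.53 for Chac1, 1.10 for Ddit3, 0.68 for Ppp1r15a and 0.46 for Cebpg. At 24 h it was 3.07 for Atf3, 1.81 for Ddit3, 1.20 for Trib3, 1.07 for Ppp1r15a, 0.80 for Chac1, 0.19 for Cebpg, 0.13 for Ppp1r15b and -0.32 for Atf5. The 6 h and 24 h values share their DMSO libraries. For the change from 6 h to 24 h of CFZ it was 1.19 for Atf3, 0.71 for Ddit3, 0.39 for Ppp1r15a, -0.73 for Chac1, -0.34 for Trib3, -0.27 for Cebpg and -0.23 for Atf5. Of these 21 values, those of Cebpg and Ppp1r15b at 24 h were lost under at least 1 alternative analysis, as given with them above. Groups of 3 libraries were not screened for single libraries that stand apart.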

How the results depend on the processing

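Of 120 values (10 genes in 12 comparisons), 100 kept their direction and call under every alternative run, as did 1687 of 1740 alternative values. Of 372 alternative counts of called genes, 339 were within 1.5 times the count reported. With a minimum fold of 2 the counts of higher and lower genes against DMSO were, for WT cells, 4 and 0 after 6 h and 3 and 1 after 24 h, and for Nrf1-KO cells 5 and 0 after 6 h, with 2 lower after 24 h. From 6 h to 24 h they were 0 and 3 in WT cells, with 4 lower in Nrf1-KO cells. For Nrf1-KO against WT they were 0 and 2 in DMSO, 1 and 0 with 6 h of CFZ, and 3 and 0 with 24 h, for the interaction at 24 h 4 and 0, and for that of line and time 1 and 0. DESeq2 called 1 gene lower in Nrf1-KO than WT cells at 6 h. Upper-quartile scaling and library size alone each called 2 genes lower under 6 h of CFZ in Nrf1-KO cells, and library size alone and no filter each called 2 with a lower interaction at 24 h. With each library left out, the count of genes with a lower 6 h interaction was 0 to 1, that of genes with a lower 24 h interaction 1 to 2, and that of genes rising from 6 h to 24 h in WT cells 1 to 2.

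Signs turned only for values near 0 that were not called. With no filter the 6 h interactions of Cebpb and Ppp1r15b were -0.0055 and -0.0087. With each library left out in turn that interaction ranged from -0.090 to 0.12 for Cebpb and from -0.039 to 0.042 for Ppp1r15b. The line difference in DMSO ranged from -0.11 to 0.0036 for Ppp1r15a and from -0.0041 to 0.041 for Ppp1r15b, and under 6 h of CFZ from -0.012 to 0.051 for Ppp1r15b. The cause was not tested. Libraries with the same replicate number shared little deviation from their group means (mean correlation 0.0136 over 45 pairs, highest 0.0972). That does not tell whether such libraries were handled together. They were not paired in the tests, and the fit with the replicate number as a block changed no call of the 10 genes. Upper-quartile or library-size scaling moved the median of all genes by -0.181 to -0.103 in the CFZ comparisons in which it moved by over 0.1, and in WT cells at 6 h 37.9% and 35.5% of called genes were higher, in place of 49.6%. Library size alone moved this share from 49.7% to 36.4% in Nrf1-KO cells at 6 h and from 52% to 41.6% at 24 h, and for Nrf1-KO against WT from 46.9% to 57.7% in DMSO and from 49.8% to 60.8% at 6 h, and for the interaction of line and time from 48.2% to 30.1%. No called change of the 10 genes turned sign under them. At a coefficient of variation of 3.13% small differences were called. Low counts limited Gdf15 and kept Fgf21 (6 counts in all libraries together), Batf3 (2) and Cebpa (0) out of the tests.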
